A study of Mus musculus with 48 samples.

Results

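Glucocorticoid-responsive genes are genes whose transcription rises when the stress hormone corticosterone (cortisol in humans) activates the glucocorticoid receptor. The 10 genes described here are Hif3a, Fkbp5, Sgk1, Tsc22d3, Per1, Zbtb16, Klf9, Nfkbia, Pdk4 and Errfi1. They were picked by symbol from 24421 genes, and each was present in all 6 expression tables, which hold 48 libraries in 16 groups of 3. The choice was made with a difference in Hif3a between 2 of these groups already known, and with the question of whether handling stress accompanies such group differences. The contrast that led to it is given as values without a test. No group in the labels is a hormone or stress treatment, so hormone exposure itself was not measured.

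All libraries came from fluorescence-sorted mouse brain cells. The astrocyte reporter genotype Aldh1l1-GFP was shared by the Gq-CNO, Gq-Saline, CNO-control and untreated groups. Gq names a designer receptor that couples to the Gq protein, CNO (clozapine-N-oxide) is the drug that activates it, and saline is the vehicle. Gq-CNO and Gq-Saline were each sorted from olfactory bulb, cortex and hippocampus, once as GFP cells, titled astrocytes, and once as mCh (mCherry) cells, titled neurons. CNO-control and untreated were GFP cells of the olfactory bulb only. The last pair of groups were mCh cells of the olfactory bulb, titled astrocytes, from Slc22a3-FF mice given Gfap-mCh (the flox control) or Gfap-Cre (Slc22a3-cKO). All mice of both of these groups therefore carried the floxed Slc22a3 allele. Age, dose, interval between treatment and sorting, and hour of collection were not given in the sources used here. The titles of the GFP groups do not say which cells carried the receptor.

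The receptor sits in the cytoplasm with heat shock protein chaperones until hormone binds, then enters the nucleus and binds an inverted repeat in DNA, the glucocorticoid response element. Its targets include a brake on the receptor itself, Fkbp5, which lowers its affinity for hormone. Other targets, Nfkbia and Tsc22d3, restrain inflammatory transcription. In brain the same genes also answer other inputs, such as growth factors, synaptic activity, the daily clock, fasting and low oxygen, so none of them reads hormone alone. The enzyme Hsd11b1 regenerates active hormone inside cells, and Nr3c1 and Nr3c2 encode the glucocorticoid and mineralocorticoid receptors.

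Promoter letters illustrate how differently the members are built. RefSeq windows on build GRCm38.p6, each running from 250 bases before to 50 bases after a transcript start, were found for 9 of the 10 members, with 18 windows in all. Both strands were searched for 5 motifs, and overlapping matches were kept. The first was the full response element GNACANNNTGTNC and the next its single arm TGTTCT. The others were the E-box CACGTG bound by clock factors, the NF-kB form GGGNNNTTCC and the cyclic AMP element TGACGTCA. The window of Hif3a, whose difference between 2 groups led to the choice of these genes, is shown with 1 window of Sgk1 and that of Nfkbia, which hold matches. Capitals mark every match, and all 3 are written 5′ to 3′ on the gene's strand: Hif3a at chr7:17062378-17062677 (minus strand), Sgk1 at chr10:21993640-21993939 (plus strand) and Nfkbia at chr12:55492598-55492897 (minus strand).
Hif3a: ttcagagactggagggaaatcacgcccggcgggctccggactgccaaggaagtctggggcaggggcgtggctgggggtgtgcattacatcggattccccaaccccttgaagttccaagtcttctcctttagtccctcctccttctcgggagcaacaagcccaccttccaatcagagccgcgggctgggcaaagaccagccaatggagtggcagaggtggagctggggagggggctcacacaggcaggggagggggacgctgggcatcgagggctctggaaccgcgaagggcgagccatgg
Sgk1: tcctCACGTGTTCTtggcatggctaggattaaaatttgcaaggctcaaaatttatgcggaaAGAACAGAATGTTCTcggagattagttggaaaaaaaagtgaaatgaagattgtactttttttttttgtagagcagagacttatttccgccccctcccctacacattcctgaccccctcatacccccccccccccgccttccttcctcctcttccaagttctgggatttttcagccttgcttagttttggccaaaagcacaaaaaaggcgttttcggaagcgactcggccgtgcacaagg
Nfkbia: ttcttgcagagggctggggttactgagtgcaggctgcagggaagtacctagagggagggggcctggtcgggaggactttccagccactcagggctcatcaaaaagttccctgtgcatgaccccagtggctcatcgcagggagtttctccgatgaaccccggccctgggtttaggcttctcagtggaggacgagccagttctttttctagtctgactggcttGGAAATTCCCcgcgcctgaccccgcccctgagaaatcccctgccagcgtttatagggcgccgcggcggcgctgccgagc
The Sgk1 window held the full element beginning 188 bases before the start. It was the only member window of 18 with that match, against 0.475% of 32851 RefSeq windows of the same length. The single arm was in 4 member windows, belonging to Sgk1 and Tsc22d3, against 19.0% of all windows. The E-box lay in a window each of Fkbp5, Sgk1 and Per1 (7.15% of all windows), the NF-kB form in that of Nfkbia (5.56%) and the cyclic AMP element in that of Errfi1 (1.79%). The Hif3a window held none of the 5, which says only that these letters are not in those 300 bases.

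Depth ran from 228048 to 24664376 recovered reads per library. Levels below are RPM, recovered reads per 1000000 of the library, and differences are log2 differences of the authors' normalised values plus 1, from limma with Benjamini-Hochberg adjustment over all genes tested. No label ties a library to its own animal, and the p-values therefore cover only how these libraries vary, which may be technical. The median astrocyte marker stood at 705 RPM in the GFP sorts, against 17.9 RPM for neuron and 5.13 RPM for microglia markers. The mCh sorts titled neurons went against their title: the median marker was at 612 RPM for microglia, 450 RPM for oligodendrocytes and 109 RPM for neurons. The flox control and cKO libraries, titled astrocytes, were mixed as well. Their median marker was at 337 RPM for microglia, 290 RPM for olfactory ensheathing glia and 166 RPM for astrocytes. It was at 33.9 RPM for neurons and 13.4 RPM for oligodendrocytes. In sum, microglia markers held 4585 to 11104 RPM and astrocyte markers 2159 to 14701 RPM there. Slc22a3 had 0 reads in the 3 flox control libraries and 12 reads in 1 of 3 cKO libraries, so it does not check the cKO label. In such bulk sorts, fewer cells of a type and less RNA per cell cannot be told apart.

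The 10 members did not share 1 order of levels over the 16 groups. Hif3a, an inhibitory relative of the oxygen-sensing HIF factors, averaged 161 ± 55.7 RPM (SD, n = 3) in CNO-control bulb astrocytes. The other 15 group means ran from 37.0 RPM in hippocampal Gq-Saline GFP cells down to 1.46 RPM in bulb Gq-CNO mCh cells, each within the SDs of its neighbour. Klf9, a Krüppel-like transcription factor, also topped its order in CNO-control (343 ± 14.5 RPM), apart from cortical Gq-Saline GFP cells (269 ± 27.6 RPM). No other member was highest in that group.

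Nfkbia, Sgk1 and Errfi1 were instead highest in the flox control and cKO groups. Nfkbia, the NF-kB inhibitor IκBα, averaged 125 ± 65.3 and 86.5 ± 21.5 RPM there, and the second of these stood apart from the next group at 28.3 ± 25.4 RPM. Sgk1, a kinase that acts on ion channels, averaged 148 ± 33.3 RPM in the flox control and 199 ± 68.7 RPM in the cKO group. Errfi1, a feedback inhibitor of the EGF receptor, averaged 111 and 86.6 RPM, followed by CNO-control at 47.2 RPM.

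Pdk4, a kinase that turns glucose oxidation down, and Tsc22d3, which encodes the anti-inflammatory protein GILZ, had their highest means in hippocampal Gq-Saline GFP cells (117 ± 14.9 and 90.7 ± 34.9 RPM). Pdk4 ended at 5.54 ± 2.69 RPM in the flox control and 0.143 ± 0.187 RPM in cKO, where the cKO group was apart from the flox control. Fkbp5 was highest in hippocampal Gq-CNO mCh cells (34.3 ± 14.2 RPM) and lowest in untreated bulb astrocytes (0.281 ± 0.487 RPM). Zbtb16, a zinc finger repressor, ran from 14.4 to 2.71 RPM with no step beyond the SDs. Per1, a core clock repressor, had its highest mean in cortical Gq-Saline GFP cells (125 ± 180 RPM), where a single library held 333 RPM. The cKO group followed at 68.4 ± 13.3 RPM, apart from the flox control at 38.5 ± 9.10 RPM.

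**Figure D1:**
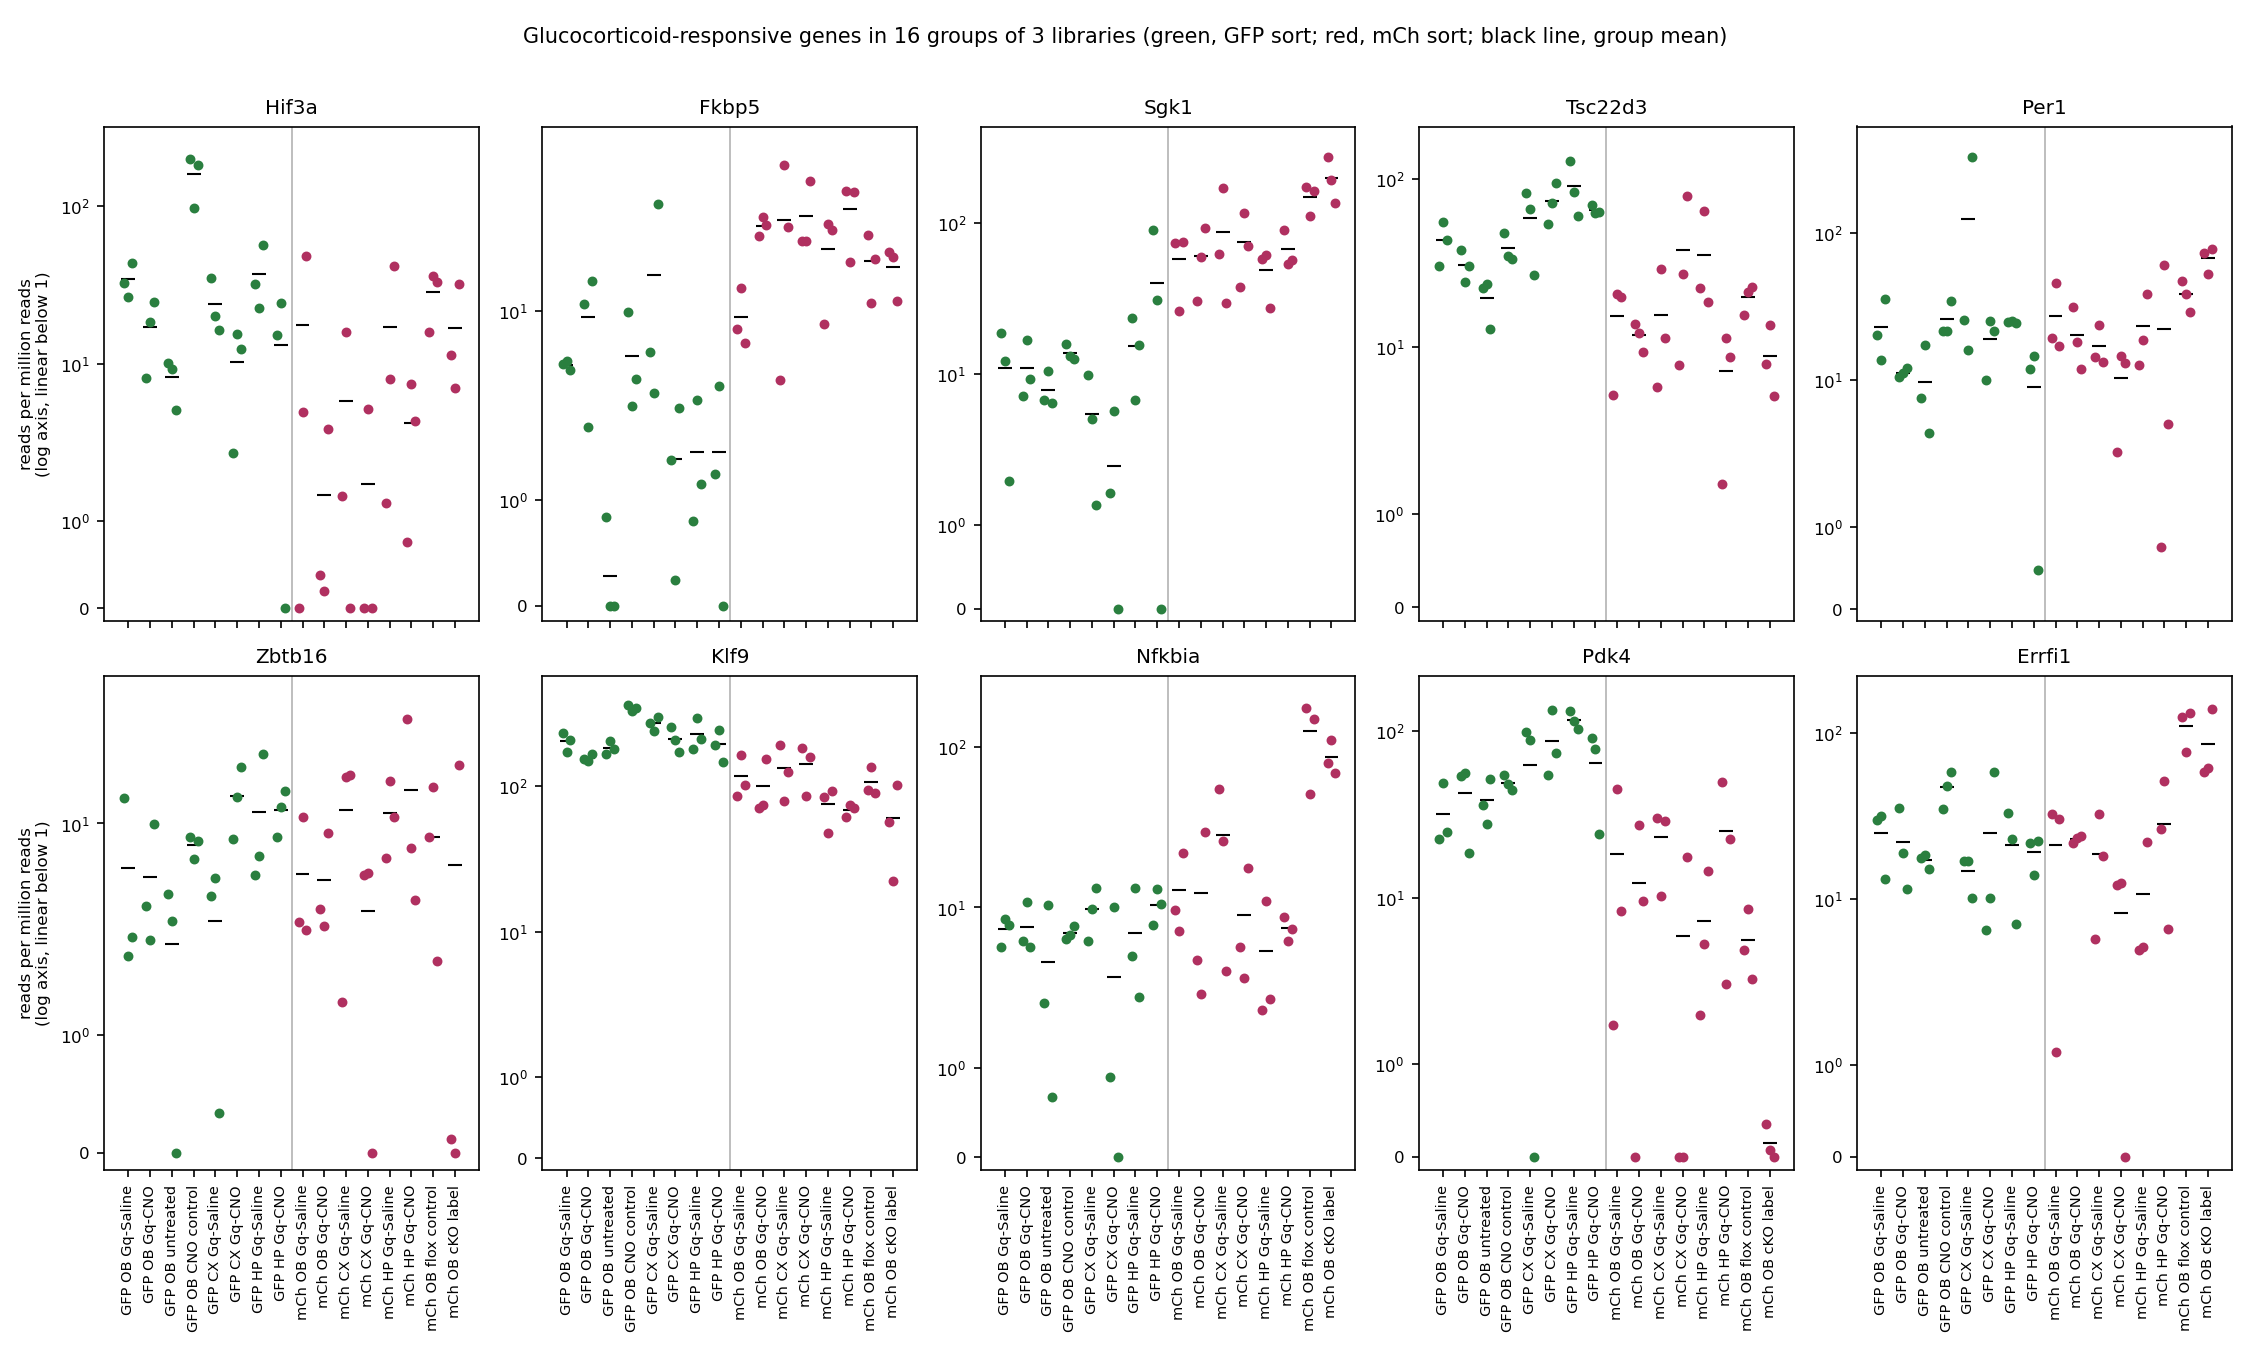
RPM of each of the 10 genes (vertical log axis, linear below 1) in the 16 groups; points are the 3 libraries of a group, black lines the means, green the GFP and red the mCh sorts. Hif3a and Klf9 peak in the CNO-control group, Nfkbia, Sgk1 and Errfi1 in the flox control and cKO groups.

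Between genes, levels were compared per kilobase of exon. Klf9 led over the 24 GFP libraries with a median of 42.9 reads per kilobase per 1000000, followed by Pdk4 at 15.5 and Tsc22d3 at 11.7, while Fkbp5 was last at 0.345. The order differed in the flox control and cKO libraries, where Nfkbia led at 59.0 reads per kilobase per 1000000, Sgk1 followed at 34.1 and Pdk4 was last at 0.514. In CNO-control, Hif3a stood second at 27.4 reads per kilobase per 1000000, behind Klf9 at 71.1. In the untreated group it was at 1.38.

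CNO-control and untreated bulb astrocytes are the contrast behind the choice of these genes, and its values are given without a test. Hif3a was at 201, 97.1 and 184 RPM in the 3 CNO-control libraries and at 10.1, 9.28 and 5.06 RPM in the untreated ones. The groups lay far apart, with a log2 difference of 3.99 (SE 0.388). Klf9 was at 358, 329 and 342 RPM against 166, 204 and 179 RPM, a log2 difference of 0.65 (SE 0.151). Errfi1 was at 34.7, 48.1 and 58.7 RPM against 17.7, 18.6 and 15.18 RPM, a log2 difference of 1.16 (SE 0.330). All CNO-control libraries lay above all untreated ones for both genes.

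Fkbp5, the classical receptor target among them, rested on few reads in the untreated group. It was at 9.82, 3.15 and 4.34 RPM in CNO-control, against 2 reads in 1 untreated library and 0 in the others, where 3 reads would be 1.74 and 1.01 RPM. Tsc22d3 was at 47.4, 35.0 and 33.6 RPM against 22.4, 23.8 and 12.8 RPM, a log2 difference of 0.74 (SE 0.369). Per1 was at 21.8, 21.8 and 34.5 RPM against 7.59, 17.4 and 4.38 RPM, a log2 difference of 1.32 (SE 0.531). These 3 genes were higher in every CNO-control library, as were Sgk1 (0.56, SE 0.502) and Zbtb16 (2.07) in RPM. Nfkbia overlapped (6.34, 6.76 and 7.69 against 2.53, 10.4 and 0.675 RPM), and so did Pdk4 (54.5, 48.5 and 44.5 against 35.8, 27.8 and 51.9 RPM). All 10 log2 differences were positive in the main fit, while that of Pdk4 ran from −0.10 to 0.39 over other fits. Their median was 1.08 against 0.11 over all 10940 genes tested. The choice of members started from Hif3a in this contrast, so this median and the counts that follow are descriptions only. Of the members, 8 did not overlap and were higher, beside 32.9% of all genes (16.7% higher, 16.2% lower), and no call on a member is given here. Of all genes, 12.2% passed adjusted p of 0.05 (limma), 5.29% higher and 6.88% lower. Scaling by total reads raised the median over all genes to 0.37 and turned the split of calls from 579 higher and 753 lower to 1194 and 486.

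The hormone pathway around the members was mixed in the same contrast. Nr3c1 was at 242, 320 and 291 RPM against 182, 299 and 345 RPM, overlapping (log2 difference −0.17). Hsd11b1 was lower in CNO-control, at 14.05, 16.1 and 11.9 RPM against 20.7, 31.9 and 55.3 RPM (−1.50). Of 22 other glucocorticoid-induced genes tested, 6 were called higher and 3 lower, with a median log2 difference of 0.67. Called genes included the clock gene Per2 (2.21), the phagocytic receptor Mertk (1.19) and the metallothionein Mt1 (−0.90), which hormone is known to induce. The calls of Mertk and Mt1 were lost without a mean-variance trend, and those of Per2 and Mt1 in a fit of all groups of the sort. Of 18 genes of the receptor and its machinery, Ep300 (0.67) and Ncoa3 (2.27), both coactivators, were called higher and Hsd11b1 lower. Each of these calls was lost without a mean-variance trend and when any single CNO-control library was left out.

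Genes of other inputs moved in these same libraries. Of 16 stimulus-response genes tested, 11 were called higher and 0 lower (limma; median log2 difference 2.57), with Fos at 181 to 336 RPM against 7.17 to 23.19 RPM and Egr1 at 339 to 583 RPM against 42.2 to 98.0 RPM. Among 16 hypoxia genes, relatives of Hif3a in function, 1 was called higher, Arnt (2.01 to 2.64 over other fits). Another 4 were called lower, including Epas1 (−0.62) and Pgk1 (−0.81). The calls of Epas1 and Pgk1 were lost without a mean-variance trend, with scaling by total reads and in a fit of all groups of the sort. That of Arnt was lost only in the last of these. Of 10 heat shock genes 1 was called higher (Hspa5, 0.71) and 2 lower (Cryab −1.42, Hspe1 −2.12). All of these heat shock calls were lost without a mean-variance trend, and that of Hspa5 also without CNO-control replicate 2 or replicate 3. Malat1, a nuclear RNA, was at 23725 to 41045 RPM against 2545 to 4276 RPM. Microglia markers summed to 108 to 180 RPM against 518 to 676 RPM, and 10 of 12 were called lower. CNO-control libraries held 6619479 to 8577907 reads and untreated ones 1724893 to 2964862. The part of any of these in the members' differences was not tested.

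The Gq groups of the bulb give the same members in libraries from another table. Hif3a was at 32.7, 26.5 and 43.8 RPM in Gq-Saline and at 8.09, 18.4 and 24.6 RPM in Gq-CNO, so both lay below CNO-control, and Gq-Saline lay above untreated without overlap. Mean Hif3a in CNO-control was 4.68 times that of Gq-Saline and 9.43 times that of Gq-CNO. Hif3a, Klf9 and Errfi1 lay above Gq-Saline in every CNO-control library, and Hif3a, Per1 and Klf9 lay above Gq-CNO. Fkbp5, Hif3a and Tsc22d3 were higher in every Gq-Saline than in every untreated library. These tables were normalised separately, so RPM levels across them are descriptions. The share of all genes that separate in these pairs of groups was not computed. It is therefore not shown that these separations are particular to the members. The CNO-control values of Hif3a are also those that led to the choice of members.

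**Figure D2:**
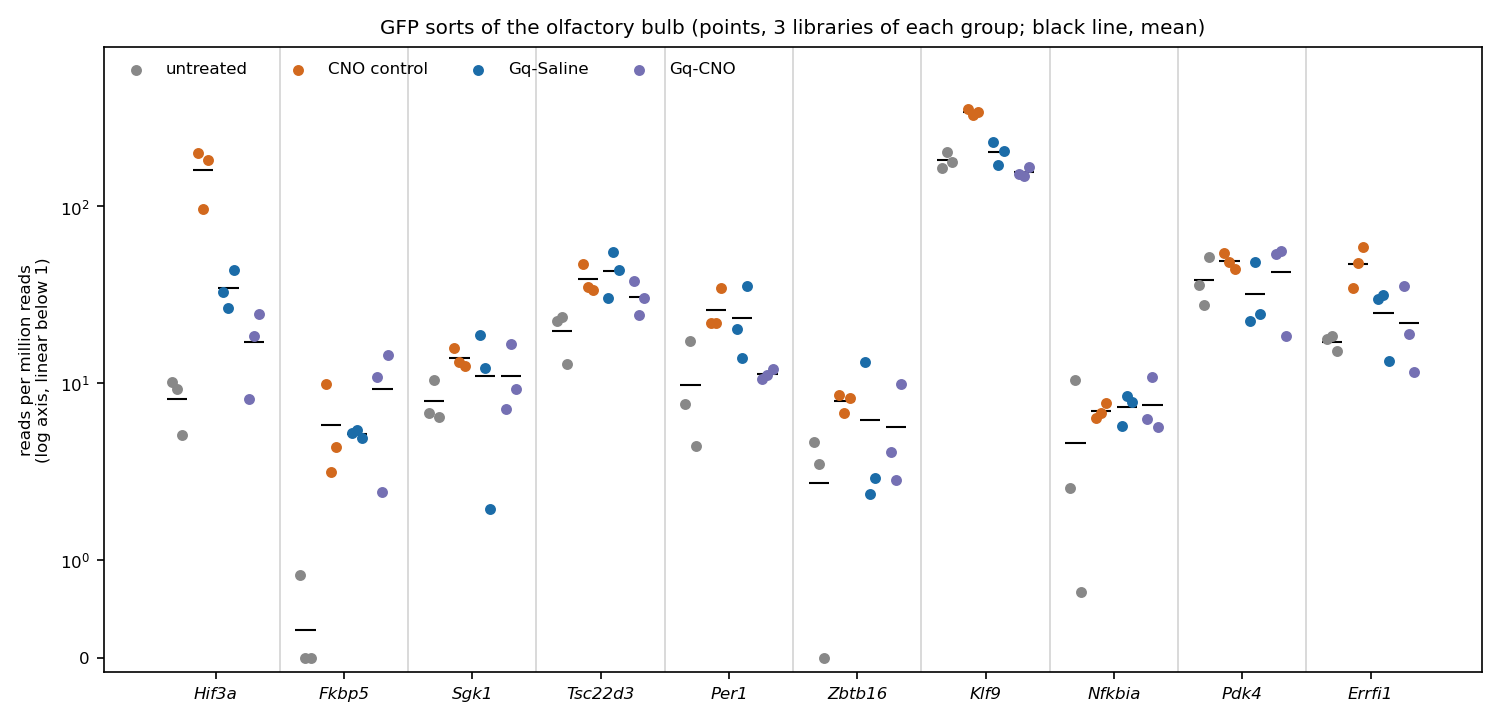
RPM of the 10 genes (vertical log axis, linear below 1) in GFP astrocytes of the olfactory bulb in the untreated, CNO-control, Gq-Saline and Gq-CNO groups; points are libraries and lines means. Every CNO-control library lies above every Gq-Saline one for Hif3a, Klf9 and Errfi1, whereas Tsc22d3 has its highest mean in Gq-Saline. The share of all genes that separate in this way was not computed.

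Whether Gq-CNO changed the members against Gq-Saline was tested first in bulb astrocytes. None of the 10 passed (limma, 1 at unadjusted p of 0.05; edgeR also 0), beside 0.00847% of 11810 genes called. The member at that unadjusted p was Hif3a, with the RPM values above and normalised values of 137 ± 65.0 against 279 ± 85.3 (SD, n = 3). All Gq-CNO libraries lay below all Gq-Saline ones, with a limma log2 difference of −1.11 (SE 0.456, adjusted p = 0.996). Per1 was at 10.5, 11.2 and 12.05 RPM in Gq-CNO and 20.2, 13.8 and 35.7 RPM in Gq-Saline (−0.92, SE 0.514). Klf9 was at 153, 150 and 167 RPM against 231, 172 and 206 RPM (−0.36, SE 0.195). These 3 members did not overlap and were lower in Gq-CNO, beside 9.88% of all genes (4.89% higher, 5.0% lower). The other 7 overlapped, between −0.45 for Tsc22d3 and 0.49 for Fkbp5, and the 10 had a median of −0.10 against 0.01 over all genes.

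Known receptor targets outside the 10 did not lean either way there. Of 21 other glucocorticoid-induced genes tested, 10 had positive and 11 negative differences with a median of −0.04, and 0 were called (limma; 1 at unadjusted p of 0.05, edgeR 0). Of 18 receptor machinery genes, 0 were called (limma; 0 at unadjusted p of 0.05, edgeR 0), with a median of 0.00. Nr3c1 differed by 0.16 and Hsd11b1 by −0.04 on the log2 scale.

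In cortical astrocytes, none of the 10 was called between Gq-CNO and Gq-Saline (limma; none at unadjusted p of 0.05, edgeR 0), beside 0.0% of 9978 genes. Their lowest adjusted p was 0.910. Zbtb16 was at 8.49, 13.4 and 18.5 RPM in Gq-CNO and 4.53, 5.50 and 0.340 RPM in Gq-Saline (2.42, SE 1.36). Hif3a was at 2.71, 15.5 and 12.3 RPM against 34.9, 20.1 and 16.3 RPM (−1.41, SE 0.968). Fkbp5 was at 1.63, 0.244 and 3.08 RPM against 6.04, 3.67 and 36.4 RPM (−2.70, SE 1.56). In these 3 the groups did not overlap, 1 higher and 2 lower in Gq-CNO, beside 8.89% of genes (4.46% higher, 4.43% lower).

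A single cortical Gq-Saline library, whose column carries no usable replicate number, set several of these values. It held Per1 at 333 RPM against 25.7 and 16.04 RPM in the others of its group, and Fkbp5 at 36.4 RPM. Pdk4 had no reads in it, against 98.9 and 88.2 RPM. The same library held Egr1 at 656 RPM, summed stimulus genes at 2289 RPM against 75.0 to 117 RPM in the other 5 cortical GFP libraries, and microglia markers at 2643 RPM against 83.3 to 351 RPM. Without it, the log2 difference of Per1 went from −1.50 to −0.11 and that of Pdk4 from 2.74 to −0.11. The unnumbered Gq-CNO library of the cortex held 325129 reads, so that 3 reads there make 9.23 RPM. Its Fkbp5 value lay below that limit, and its Hif3a and Zbtb16 values also rested on few reads. The lack of overlap given above for these genes depends on such low counts.

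In hippocampal astrocytes, none of the 10 was called (limma; 1 at unadjusted p of 0.05, edgeR 0), beside 0.0% of 11519 genes. Pdk4 was at 90.6, 78.2 and 24.2 RPM in Gq-CNO and 133, 115 and 103 RPM in Gq-Saline, with no overlap (−1.07, SE 0.435, limma adjusted p = 0.976). Per1 was at 12.001, 14.6 and 0.475 RPM against 25.1, 25.4 and 24.4 RPM, also without overlap (−2.43, SE 1.18). These 2 members, both lower, stood beside 8.85% of genes without overlap (4.18% higher, 4.68% lower). Hif3a was at 15.204, 24.3 and 0 RPM against 31.9, 22.4 and 56.7 RPM (−3.45, SE 1.69).

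Here too 1 library weighed on the values, the unnumbered Gq-CNO library with 2105201 reads. It had 0 reads of Hif3a, Fkbp5 and Sgk1, where 3 reads would be 1.43 RPM. Without it the log2 differences shrank to −0.94 for Hif3a, −1.01 for Per1 and −0.57 for Pdk4. Sgk1 was at 89.4, 30.9 and 0 RPM against 23.5, 6.71 and 15.4 RPM, and its log2 difference turned from −1.14 to 1.86 without that library and was 1.28 by edgeR on all libraries.

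**Figure D3:**
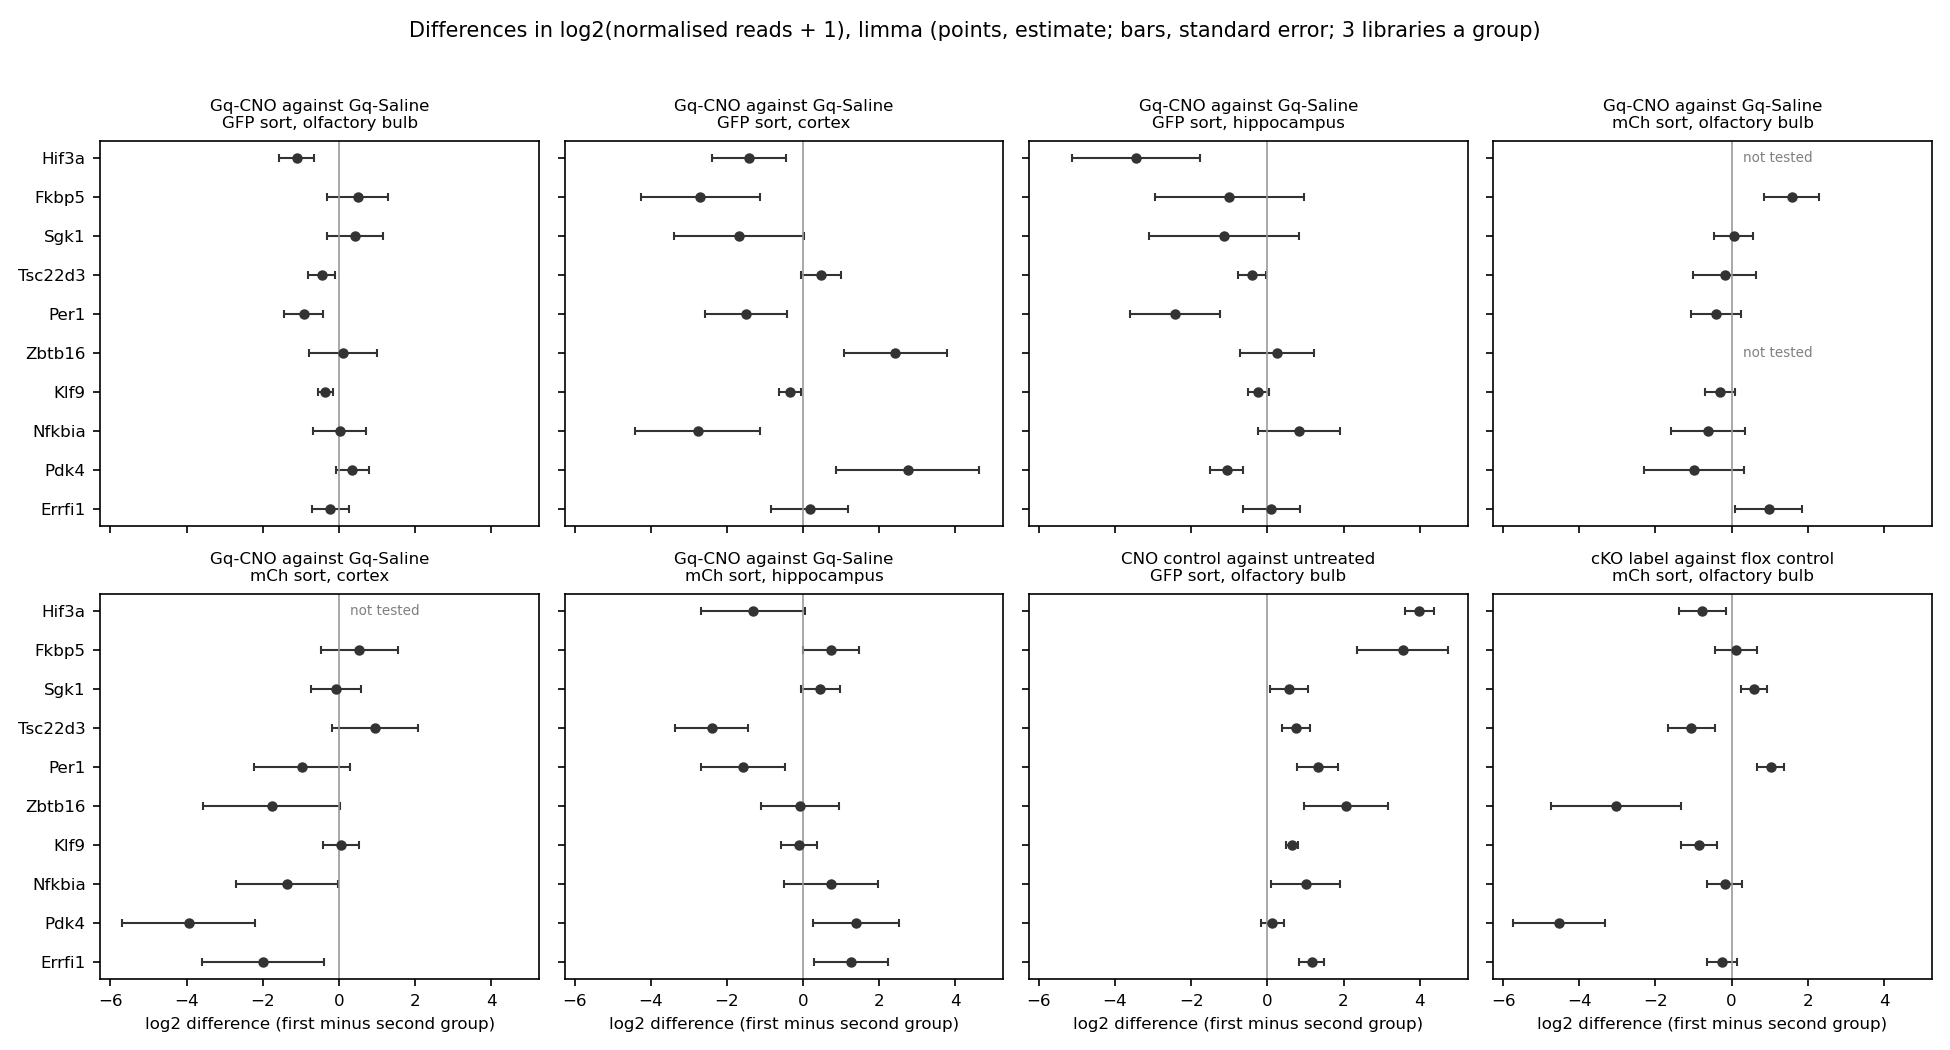
Log2 difference ± SE of each of the 10 genes, 1 panel per comparison, on normalised values plus 1. CNO-control against untreated (which led to the choice of these genes) lies above 0 for all 10, whereas the Gq-CNO panels scatter on both sides of 0.

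Across regions of the GFP sort, levels of the hormone-regenerating enzyme gene Hsd11b1 set the bulb apart. It had a median of 14.2 RPM over the 6 bulb Gq libraries (lowest 9.96, highest 41.6), 105 RPM over those of cortex and 180 RPM over those of hippocampus. Cortex and hippocampus did not overlap the bulb, at 7.38 and 12.7 times its median. Tsc22d3 had medians of 34.1, 68.8 and 66.6 RPM in the same order. Its hippocampal libraries (60.2 to 129 RPM) all lay above the bulb ones (24.4 to 55.6 RPM). Pdk4 had medians of 36.7, 81.0 and 96.8 RPM with overlap. The 3 regions come from separate tables, so no test was made of these levels.

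**Figure D4:**
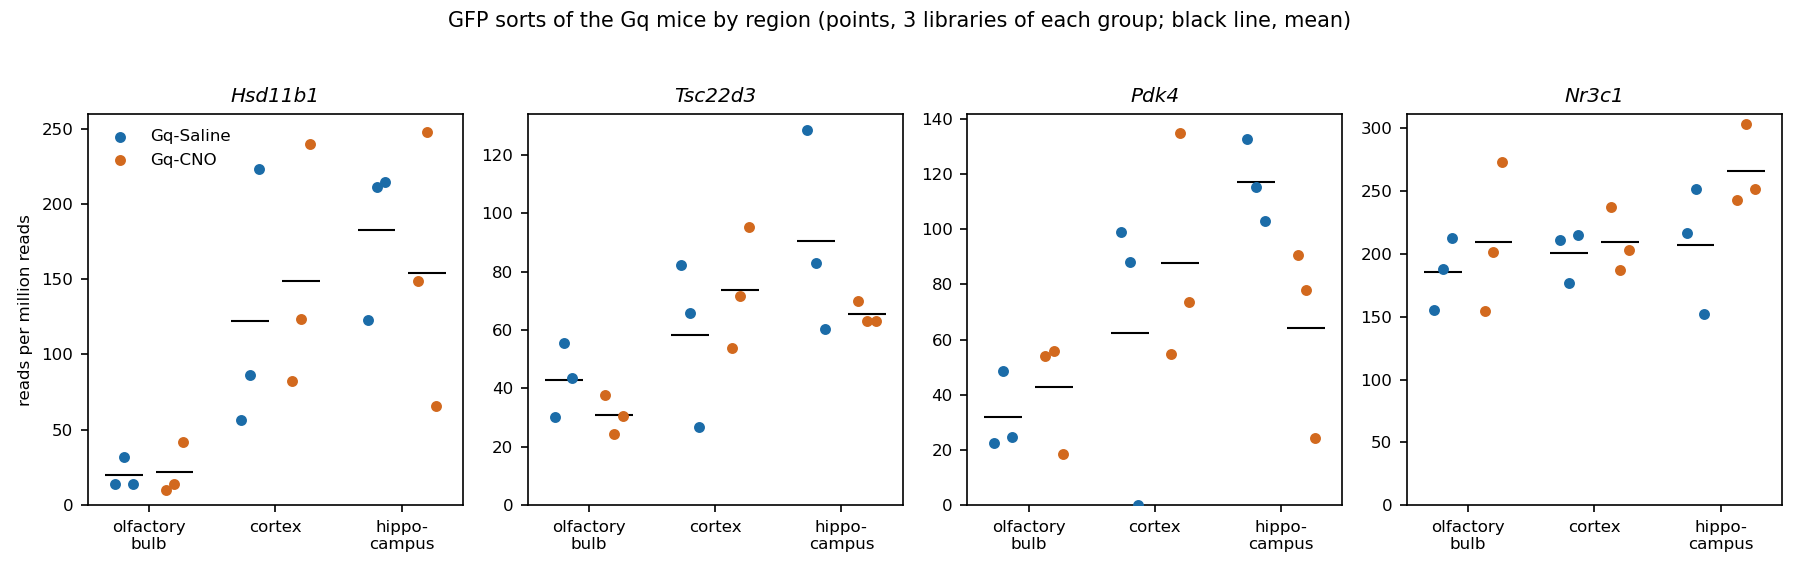
RPM of Hsd11b1, Tsc22d3, Pdk4 and Nr3c1 in GFP astrocytes by brain region (horizontal), with Gq-Saline and Gq-CNO libraries as separate points. Hsd11b1 separates the bulb from cortex and hippocampus, while Nr3c1 overlaps between regions.

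The mCh sorts had another member profile than the GFP sorts of the same Gq groups. Fkbp5 had a median of 25.6 RPM over 18 mCh against 3.52 RPM over 18 GFP libraries, and Sgk1 60.5 against 8.18 RPM. Lower in the mCh sorts were Hif3a (2.62 against 21.2 RPM), Pdk4 (9.90 against 64.8 RPM), Tsc22d3 (12.9 against 61.7 RPM) and Klf9 (85.8 against 207 RPM). All of these ranges overlapped between the sorts. Per1, Zbtb16, Nfkbia and Errfi1 had like medians in both sorts, and Nr3c1 was at 165 against 212 RPM.

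In the mCh sort of the bulb, Gq-CNO and Gq-Saline differed without overlap for Fkbp5 alone among the members, beside 10.6% of all genes (5.72% higher, 4.88% lower). Fkbp5 was at 24.8, 31.0 and 28.3 RPM in Gq-CNO and 7.98, 13.1 and 6.78 RPM in Gq-Saline. Its limma log2 difference was 1.57 (SE 0.718, adjusted p = 0.900), and none of the 8 members tested was called (1 at unadjusted p of 0.05, edgeR 0), beside 0.0% of 10492 genes. Tsc22d3, another direct target, overlapped at 13.7, 12.1 and 9.26 against 5.13, 20.6 and 19.8 RPM (−0.18). Hif3a and Zbtb16 were too low for the fit. Exact two-sided permutation tests gave p = 0.4 and 0.8 for them, where 0.1 is the smallest that 3 against 3 allow.

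In the cortical mCh sort, none of the 9 members tested was called (limma; 1 at unadjusted p of 0.05, edgeR 0), beside 0.0% of 9392 genes, and none was free of overlap, against 9.64% of all genes (4.65% higher, 4.98% lower). That member was Pdk4, at 0, 0 and 17.5 RPM in Gq-CNO and 30.2, 10.3 and 28.9 RPM in Gq-Saline (−3.94, SE 1.75, limma adjusted p = 0.967). The 17.5 RPM came from 4 reads in the shallowest library of the series. Hif3a was untested there (exact permutation p = 0.7).

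In the hippocampal mCh sort, none of the 10 was called (limma; 1 at unadjusted p of 0.05, edgeR 0), beside 0.0% of 9808 genes. Tsc22d3 was at 1.52, 11.3 and 8.67 RPM in Gq-CNO and 22.5, 64.8 and 18.4 RPM in Gq-Saline. These groups did not overlap, as for 9.48% of all genes, 4.81% higher and 4.67% lower (−2.40, SE 0.960, limma adjusted p = 0.990). Fkbp5 overlapped there at 42.6, 17.97 and 42.4 against 8.49, 28.5 and 26.5 RPM (0.73).

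Whether the Gq-CNO effect differed by region was tested directly in joint fits of each sort. No member was called in any of the 6 differences by limma or edgeR, beside 0.0% of genes in each by limma. At unadjusted p of 0.05 stood Tsc22d3 (3.36, adjusted p = 0.799) and Pdk4 (−5.34, adjusted p = 0.799) for cortex minus hippocampus in the mCh sort. In the GFP sort Nfkbia was the only one (−3.93, adjusted p = 0.794), again for cortex minus hippocampus.

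Between regions within the mCh sort, no member was called by limma or edgeR (1 at unadjusted p of 0.05), although 8.58% of genes were for bulb against cortex, 3.91% for bulb against hippocampus and 0.388% for cortex against hippocampus. Klf9 was that 1 member, higher in cortex than in hippocampus by 0.90 (SE 0.325, limma adjusted p = 0.289). Its 6 cortical libraries ran from 79.1 to 193 RPM and its hippocampal ones from 47.9 to 92.1 RPM. The mineralocorticoid receptor gene Nr3c2 was not called either, with a log2 difference of −3.44 for cortex against hippocampus (SE 0.908, limma adjusted p = 0.0960). It was at 0 to 26.9 RPM in cortex and 22.2 to 59.4 RPM in hippocampus, with overlap. Cortical mCh libraries included ones of only 228048 and 695264 reads.

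Flox control and cKO libraries held the highest levels of 3 members. Over the 6 libraries Nfkbia had a median of 95.04 RPM against 8.42 RPM in the 6 bulb Gq mCh libraries, Errfi1 101 against 23.6 RPM and Sgk1 167 against 66.2 RPM, all without overlap. Fkbp5 had 18.9 RPM in both. The same libraries held summed stimulus genes at 7036 to 10263 RPM, against 260 to 598 RPM in the bulb Gq mCh libraries, with Fos at 565 to 1522 RPM. The part of stimulus genes in the levels of these members was not tested.

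**Figure D5:**
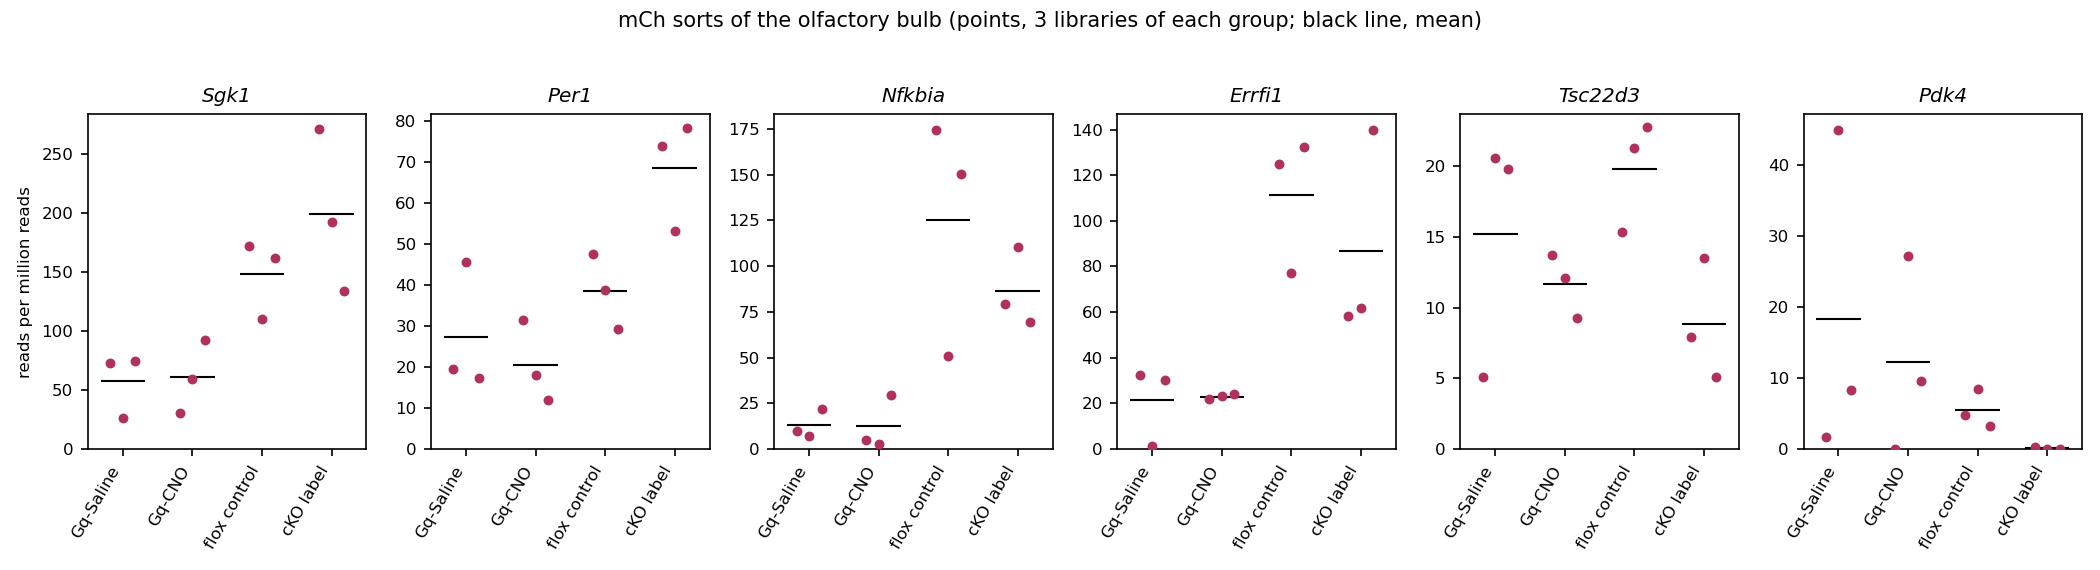
RPM of 6 of the genes in mCh cells of the olfactory bulb in Gq-Saline, Gq-CNO, flox control and cKO groups; points are libraries and lines means. Nfkbia, Sgk1 and Errfi1 are higher in every flox control and cKO library than in any Gq library, and Pdk4 is near 0 in the cKO group. The share of all genes that separate in this way was not computed.

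Between cKO and flox control, none of the 10 passed (limma; 2 at unadjusted p of 0.05, edgeR 0), beside 2.53% of 13465 genes called (1.37% higher, 1.17% lower). Pdk4 had 3, 1 and 0 reads in the cKO libraries (0.354, 0.0747 and 0 RPM) and 47, 106 and 29 reads in the flox control (4.85, 8.51 and 3.25 RPM). Every cKO library was below every flox control one, with a limma log2 difference of −4.53 (SE 1.21, adjusted p = 0.0700). Without a mean-variance trend its adjusted p was 0.0404. Astrocyte markers summed to 2159 to 6717 RPM in cKO against 7309 to 14701 RPM, with 15 of 16 markers lower and 4 called. Their part in the Pdk4 difference was not tested.

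Per1 was the other member without overlap, at 73.9, 53.2 and 78.2 RPM in cKO and 47.481, 38.8 and 29.3 RPM in flox control. Its log2 difference was 1.03 (SE 0.361, limma adjusted p = 0.154). These 2 members, 1 higher and 1 lower, stood beside 22.7% of all genes without overlap (10.6% higher, 12.2% lower). Tsc22d3 was at 7.91, 13.5 and 5.07 RPM against 15.4, 21.3 and 22.8 RPM, but overlapped in normalised values (−1.06, adjusted p = 0.399). Nfkbia overlapped at 79.5, 111 and 69.4 against 174, 51.0 and 150 RPM (−0.19). Zbtb16 had 1, 0 and 142 reads in cKO, so its fitted difference of −3.04 (limma adjusted p = 0.384) was −0.37 by edgeR. Scaling by total reads moved the median of all genes from −0.10 to −0.29 and the calls from 184 higher and 157 lower to 153 and 223.

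Of 17 clock genes other than Per1, 3 fell and 0 rose in cKO (limma; edgeR 2 called), with a median of −0.89. They were Hlf (−2.50, adjusted p = 0.00583), Rorb (−3.39, adjusted p = 0.0105) and Nr1d1 (−2.09, adjusted p = 0.0417), which encode transcription factors tied to the clock. Over the 13 alternatives Hlf passed in 12, Rorb in 9 and Nr1d1 in 4, with Nr1d1 at adjusted p = 0.250 without flox control replicate 2. Summed neuron markers were at 418 to 1241 RPM in cKO against 1491 to 4537 RPM, and their part and that of the astrocyte markers in the clock genes was not tested. Of 26 other glucocorticoid-induced genes, 2 rose, Tgm2 (2.34, SE 0.420, adjusted p = 0.0159), a transglutaminase, and Xdh (3.81, SE 0.888, adjusted p = 0.0463), xanthine dehydrogenase. By edgeR only Tgm2 of these passed, and without cKO replicate 1 neither did, with adjusted p over all alternatives from 0.00346 to 0.0910 for Tgm2 and from 0.0129 to 0.175 for Xdh (limma and edgeR). Of 18 receptor machinery genes 0 were called (limma; 2 at unadjusted p of 0.05, edgeR 0), and Nr3c1 differed by 0.37.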

How the data were processed

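The values analysed are gene read counts divided by sample size factors, a normalised signal that the authors deposited in 6 tables, with 1 column per library and no further header text. The submitters' processing notes name FastQC 0.11.7, MultiQC 1.11, STAR 2.5.0a, DESeq2 1.30.1 and build mm10, and the labels' protocols name 10 ng total RNA and a Trio RNA-Seq library kit. The counting tool and annotation are not given in the sources used here. Dividing each column by its smallest positive value gave whole reads (within 0.05) for 100% of values. Levels are these recovered reads per 1000000. The analysis plan had foreseen either counts or normalised values.

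For differences, limma 3.58.1 under R 4.3.3 modelled log2(value + 1), allowing the variance to follow the mean, in the 2 groups compared. A gene entered when 3 or more of the libraries fitted reached 10. Joint fits of all groups of a sort or table family served differences of effects and regions of the mCh sort. Genes were called at a Benjamini-Hochberg adjusted p below 0.05. Because of the added 1, the log2 differences understate changes of low genes. edgeR 4.0.16 (quasi-likelihood, TMM) on recovered reads was the alternative, beside other pseudocounts, filters, scaling, blocks and left-out libraries. The fits were tested on simulated data. Counting error is the only error that a limit of 3 reads covers. The members and gene lists were chosen with earlier results of these data known. Named beside the members are Nr3c1, Nr3c2, Hsd11b1, Slc22a3 and, per list described, up to 3 genes with the lowest p. Other genes named beside a result (Fos, Egr1, Malat1) were chosen after their values were seen. Columns of 4 cortical and hippocampal GFP libraries name a group but no replicate of it. They were used as unnumbered libraries. No pair among 48 of the same group was identical.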

Additional observations from a re-analysis of the deposited data

Results flagged for a closer look

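In bulb astrocytes, CNO-control against untreated and Gq-CNO against Gq-Saline gave opposite directions in every library for 3 of the 10 members, as for 1.79% of 10637 genes. The log2 difference of the first subtracted from that of the second was −5.10 for Hif3a, −2.24 for Per1 and −1.01 for Klf9. No test of this difference is given for the members, because its first contrast led to their choice. For the same reason their count beside the share of all genes is a description only. The groups of the 2 contrasts come from separate tables and share no library.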

How the results depend on the processing

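Of 1867 alternative values for single members, 1739 kept their sign and 128 changed it. The sign change that passed the threshold was that of Sgk1 in hippocampal GFP cells, 2.03 (adjusted p = 0.00811) with the replicate number as a block, where 1 member was called. Correlations of deviations between libraries of the same number ran from −0.09 to 0.12, and 0.1 had been set as the mark of pairing. In hippocampal GFP cells they were 0.117 for replicate 1 and 0.0867 for replicate 2, so pairing there was not settled. That fit uses numbered libraries only. All genes called between CNO-control and untreated numbered 1332, against 395 without trend, 332 in a fit of all groups of the sort, and 526 to 1614 when each library was left out (797, 551 and 526 without CNO-control replicates 1, 2 and 3). Counts of members called in that contrast and in its difference from the Gq-CNO effect were planned and are not given, because that contrast led to the choice of members. Between cKO and flox control 1 was called without trend (Pdk4) and 0 to 1 when each library was left out; without cKO replicate 3, Zbtb16 reached −5.35 (adjusted p = 0.0257) and 1277 genes were called, against 341 with all libraries. Of 753 alternative values for the other named genes, 750 kept their sign, 110 lost a call of the main fit and 20 gained a call. The fit of all groups could not be made for cKO. Within regions of the mCh sort the block could not be fitted, so the plain number served. Depth limits members near 1 RPM most, such as Fkbp5 in untreated libraries.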

Other observations

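Over the 16 group means of log2(RPM + 1), some pairs of members went together or opposite, given as a description since groups share tables, sorts and depth. Klf9 and Pdk4 (Pearson r = 0.78) and Tsc22d3 and Klf9 (0.76) went together, as did Sgk1 and Nfkbia (0.74) and Nfkbia and Errfi1 (0.72), whereas Sgk1 ran opposite to Pdk4 (−0.80) and Klf9 (−0.76). Other members followed no such pair: Zbtb16 reached at most 0.19 with any member, Per1 0.43 and Hif3a 0.50. Among 11914 genes, those most like Nfkbia over the groups were Ccl4 (0.94), Il1a (0.93) and Nlrp3 (0.93), a chemokine, a cytokine and an inflammasome sensor. Those most like Pdk4 were Csrp1 (0.96), Fgfrl1 (0.95) and Rorb (0.95). Those most like Klf9 were Pou3f2 (0.92), Xpr1 (0.91) and Hepacam (0.91). For Hif3a they were Utp14b (0.89), Rbm28 (0.85) and Zfp563 (0.85), for Fkbp5 Rapgef5 (0.91), St3gal5 (0.90) and Ptpre (0.88), and for Sgk1 Rtn4rl1 (0.96), Ptbp1 (0.95) and Hprt (0.94). For Zbtb16 the highest was Adamts9 (0.70).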
